A study of Homo sapiens with 2 samples.

Results

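Binding sites of the transcription factor RUNX2 and of the co-regulator MTA1 were examined at the annexin genes, the family to which the study's target gene ANXA7 belongs. The 10 genes (ANXA1 to ANXA7, ANXA9, ANXA10 and ANXA11) were taken by name from the 20033 protein-coding genes of RefSeq on GRCh38.p14. Any other annexin gene was not examined, and the family means these 10 in what follows. Every peak that touched a gene or the 20 kb on either side of it was assigned to that gene. The sites came from CUT&Tag, in which an antibody bound to chromatin directs a transposase to cut the DNA next to its target. The study made 1 library with an antibody against RUNX2 and 1 with an antibody against MTA1, both from non-treated MDA-MB-231 cells, an established human line of triple-negative breast cancer. No control library was used here. Each antibody had 1 library, so no difference between the lists or between genes has a replicate check, no p-value is given, and the intervals printed (exact Clopper-Pearson, 95%) cover counting error only. The labels and the study's methods name different suppliers for both antibodies.

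The RUNX2 list held 61700 peaks on chromosomes 1 to 22, X and Y and the MTA1 list 42683, with median widths of 151 and 185 bp. The depth of the libraries is unknown because no read counts were used here. Each peak carries a score whose scale is not given in the sources used here, so scores were read only as a rank, the percent of the peaks of the same list with a lower score. The submitters' processing notes name the build hg19, yet the positions fitted the starts of GRCh38. On chromosomes with listed starts, a protein-coding start was found no more than 1 kb from 15.9% of the RUNX2 and 22.7% of the MTA1 peaks, and a shift of all peaks by 100 kb left 2.19% and 2.36%. Peak positions are therefore given as the lists hold them and promoter positions as RefSeq gives them on GRCh38.p14.

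Annexins are proteins that bind acidic phospholipids of membranes when calcium rises, through a conserved core of repeats, and each member carries its own N-terminal tail. They take part in membrane repair, vesicle traffic and the organisation of membrane domains, and several are abundant in epithelial and tumour cells. RUNX2 is a runt-domain factor known for bone formation that is also active in breast cancer cells, and its domain recognises the core TGTGGT or TGCGGT. MTA1 joins chromatin as a subunit of the nucleosome remodelling and deacetylase complex, and it is known both to repress and to activate genes.

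The promoters of 6 members show how different the starts of this family are in sequence, and the peaks described further on can be placed on them. Each line gives the 250 bases before the listed start, 5′ to 3′ on the strand of the gene, from RefSeq on GRCh38.p14. Capitals mark matches on either strand to any of 4 searched motifs, the RUNX cores TGTGGT and TGCGGT, the AP-1 site TGANTCA and the E-box CACGTG. ANXA7, ANXA5 and ANXA2 are shown because a RUNX2 peak covered their start. ANXA3 and ANXA1 are shown because no peak did, and ANXA11 because its first start carried a RUNX2 peak without an MTA1 peak.
ANXA7 (chr10:73414059-73414308, minus strand): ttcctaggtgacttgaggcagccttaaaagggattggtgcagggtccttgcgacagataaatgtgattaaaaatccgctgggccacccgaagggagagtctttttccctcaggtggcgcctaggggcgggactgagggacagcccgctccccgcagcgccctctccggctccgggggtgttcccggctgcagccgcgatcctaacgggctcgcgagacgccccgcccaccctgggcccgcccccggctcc
ANXA5 (chr4:121696981-121697230, minus strand): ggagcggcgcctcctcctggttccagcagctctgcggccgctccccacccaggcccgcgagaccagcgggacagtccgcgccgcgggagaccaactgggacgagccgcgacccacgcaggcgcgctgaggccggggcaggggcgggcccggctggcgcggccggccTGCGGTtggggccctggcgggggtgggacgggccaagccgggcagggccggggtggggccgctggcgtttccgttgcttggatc
ANXA2 (chr15:60397987-60398236, minus strand): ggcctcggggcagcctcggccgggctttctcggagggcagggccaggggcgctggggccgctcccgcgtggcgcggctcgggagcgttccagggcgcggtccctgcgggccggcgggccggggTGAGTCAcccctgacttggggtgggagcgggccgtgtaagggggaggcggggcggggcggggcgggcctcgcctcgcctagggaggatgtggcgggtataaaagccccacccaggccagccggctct
ANXA3 (chr4:78551520-78551769, plus strand): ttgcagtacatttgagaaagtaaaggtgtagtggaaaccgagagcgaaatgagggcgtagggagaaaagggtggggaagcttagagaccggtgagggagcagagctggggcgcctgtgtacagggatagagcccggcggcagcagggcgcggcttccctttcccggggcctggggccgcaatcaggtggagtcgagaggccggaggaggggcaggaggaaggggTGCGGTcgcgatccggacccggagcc
ANXA1 (chr9:73151615-73151864, plus strand): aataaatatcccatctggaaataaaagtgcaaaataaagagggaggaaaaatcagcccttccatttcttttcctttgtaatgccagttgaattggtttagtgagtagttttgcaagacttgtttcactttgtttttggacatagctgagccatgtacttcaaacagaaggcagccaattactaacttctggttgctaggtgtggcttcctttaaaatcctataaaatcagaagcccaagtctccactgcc
ANXA11 first start (chr10:80205809-80206058, minus strand): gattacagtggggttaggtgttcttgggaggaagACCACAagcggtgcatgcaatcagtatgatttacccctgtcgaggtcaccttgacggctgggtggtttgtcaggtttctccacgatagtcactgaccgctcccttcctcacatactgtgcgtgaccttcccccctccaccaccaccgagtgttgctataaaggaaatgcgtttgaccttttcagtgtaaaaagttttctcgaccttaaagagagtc

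All 10 annexin genes had at least 1 peak of each library in their window. A window of a protein-coding gene held a RUNX2 peak in 84.4% of cases, an MTA1 peak in 79.7% and peaks of both in 76.9%, so the presence of both at every member stands near the background. The family held 67 RUNX2 and 44 MTA1 peaks, and no peak was counted under more than 1 member. ANXA4, by far the longest member with a span of 183 kb, had the most with 13 RUNX2 and 11 MTA1 peaks. ANXA3, with a span of 58.7 kb, had the fewest RUNX2 peaks with 1, and ANXA3, ANXA7 and ANXA10 had the fewest MTA1 peaks with 2 each. RUNX2 peaks outnumbered MTA1 peaks at 8 members, were equal in number at ANXA1 (3 and 3) and were fewer at ANXA3 (1 and 2). The RUNX2 list is also the longer (61700 against 42683 peaks), and the median protein-coding gene had 3 RUNX2 and 2 MTA1 peaks.

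**Figure D1:**
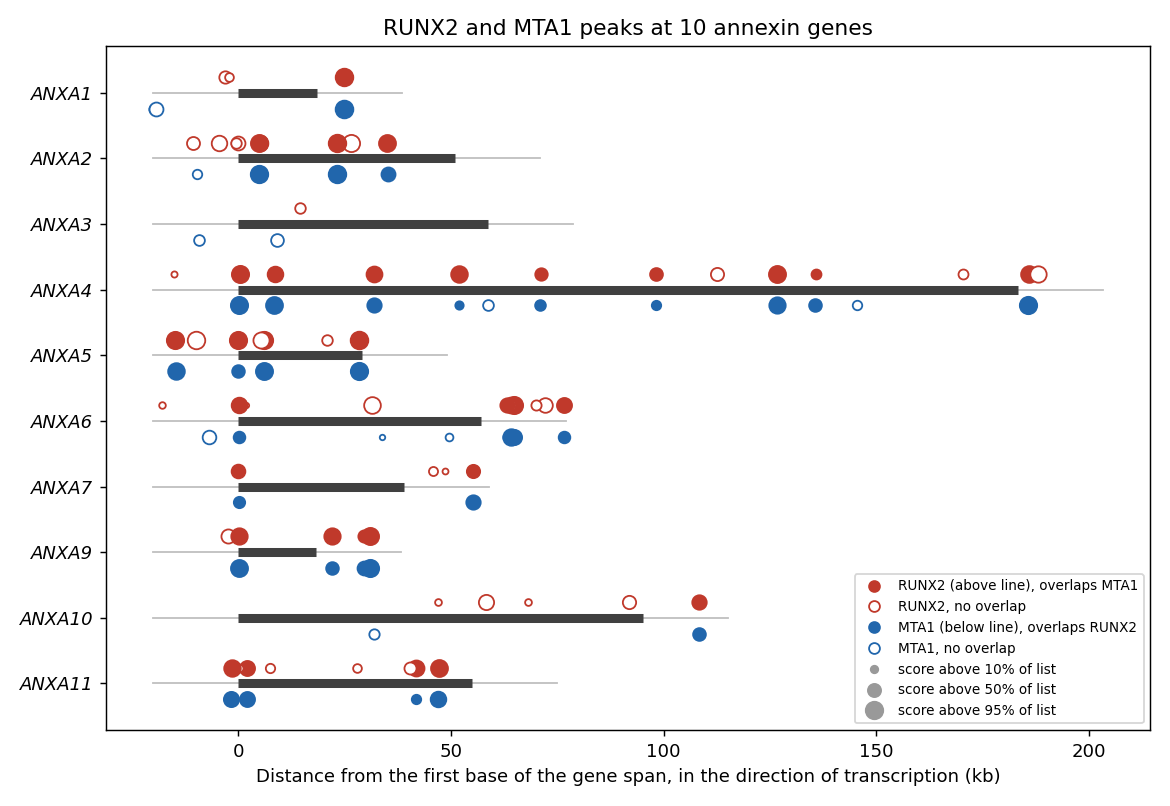
The 10 annexin genes are drawn in the direction of transcription, with the distance from the first base of the gene span in kb on the horizontal axis, the span as a dark bar and the 20 kb flanks as a thin line. RUNX2 peaks are above and MTA1 peaks below the line, larger points have a higher rank in their own list and filled points overlap a peak of the other library. Filled points fall in the windows of 9 members, and ANXA3 has open points only.

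Window length sets part of such counts, so peaks were also counted per 100 kb of window. The annexin genes had a median of 7.12 RUNX2 peaks per 100 kb (from 1.01 at ANXA3 to 11.3 at ANXA6), beside a median of 3.57 over all protein-coding genes. For MTA1 the median was 4.66 per 100 kb (from 1.48 at ANXA10 to 8.24 at ANXA6), beside 2.48. The median span of the members was 52.9 kb and that of all protein-coding genes 24.1 kb. The density of ANXA6 was higher than that of 94.2% of protein-coding genes for RUNX2 and of 89.5% for MTA1, whereas ANXA7, with 5.07 and 2.53 per 100 kb, exceeded 65.6% and 50.5% of them. The place of ANXA6 rested on the width of the window, since with 5 kb on either side its RUNX2 peaks went from 11 to 3 and its MTA1 peaks from 8 to 3, and those of ANXA7 from 4 to 1 and from 2 to 1.

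**Figure D2:**
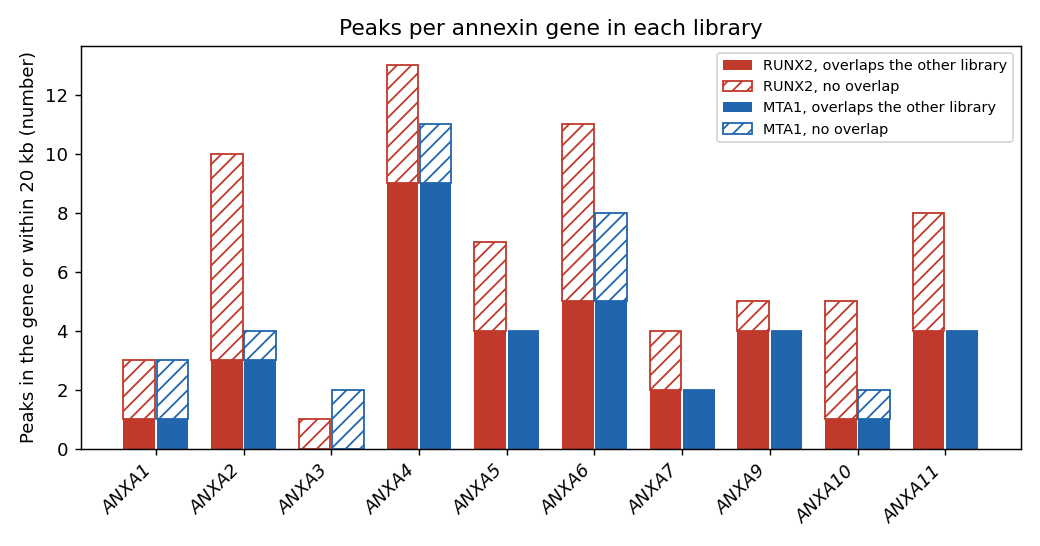
The number of peaks in each gene's window is shown for RUNX2 and MTA1, with peaks that overlap the other library drawn as the filled part of each bar. ANXA4 and ANXA6 have the highest counts and ANXA3 the lowest, and all MTA1 peaks of ANXA5, ANXA7, ANXA9 and ANXA11 overlap a RUNX2 peak.

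The lists met often at these genes. At least 1 bp was shared with an MTA1 peak by 33 of the 67 RUNX2 peaks (49.3%, 36.8 to 61.8), and by 45.4% of the whole RUNX2 list. In the other direction 33 of 44 MTA1 peaks met a RUNX2 peak (75%, 59.7 to 86.8), beside 65.5% of the whole list. Both background values lay inside the intervals of the family. An overlapping pair lay in the window of 9 of the 10 members, beside 71% of protein-coding genes, and ANXA3 was the member without a pair. ANXA4 had 9 pairs, ANXA6 had 5, ANXA5, ANXA9 and ANXA11 had 4 each, ANXA2 had 3, ANXA7 had 2, and ANXA1 and ANXA10 had 1 each.

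Peaks of RUNX2 were found within 3 kb of a listed start at 7 members and MTA1 peaks at 5, beside 58.3% and 59% of the 15842 protein-coding genes with a listed start. Both libraries had a peak there at ANXA4, ANXA5, ANXA6, ANXA7 and ANXA11, which is 5 of 10 members and 51.7% of all such genes. RUNX2 alone was found at the starts of ANXA1 and ANXA2, a state shared by 6.53% of genes, and ANXA3, ANXA9 and ANXA10 had no peak there, as did 34.4% of genes. No member had an MTA1 peak at its start without a RUNX2 peak. Over all such genes, 8197 of the 9352 with an MTA1 peak there had a RUNX2 peak as well. Only 12 of the 67 RUNX2 peaks (17.9%) and 7 of the 44 MTA1 peaks (15.9%) lay at a start. The same shares over genes with a listed start were 22.6% and 28.1%.

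Annexin peaks lay both inside and outside the gene spans. A RUNX2 peak was found inside the span of 9 members and an MTA1 peak inside the span of 9, beside 62.9% and 60.6% of protein-coding genes, and ANXA1 was the exception in both lists. In all 39 RUNX2 peaks (58.2%) and 26 MTA1 peaks (59.1%) were inside a span, beside 51.5% and 50.01% of the peaks in the windows of all protein-coding genes. Those inside a span and away from a start were 30 RUNX2 (44.8%) and 20 MTA1 peaks (45.5%). No such share was computed over all protein-coding genes. Whether a peak fell in an exon or an intron was not analysed here. For 39 RUNX2 and 25 MTA1 peaks the nearest listed start was that of the annexin gene itself, and the other 28 and 19 lay nearer to the start of another gene. The same share over the windows of all protein-coding genes was not computed here.

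**Figure D3:**
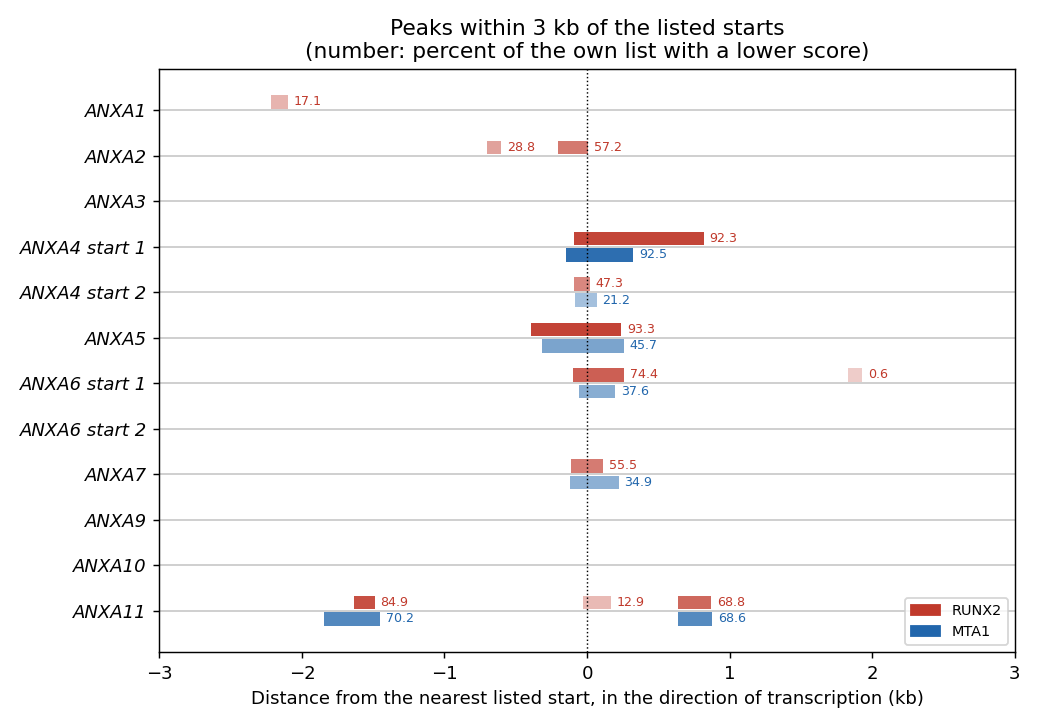
Peaks within 3 kb of a listed start are drawn to scale against the distance from the nearest listed start in kb, upstream to the left, with starts more than 6 kb apart on rows of their own. The number beside each bar is the percent of the peaks of its own list with a lower score, from 93.3 for RUNX2 at the start of ANXA5 to 0.6 for the weakest RUNX2 peak at ANXA6, and the rows of ANXA3, ANXA9 and ANXA10 are empty.

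ANXA7, first described as synexin, aggregates granules and promotes membrane fusion, and it is the member on which the study centred. Its window held 4 RUNX2 and 2 MTA1 peaks. The RUNX2 peak chr10:73413945-73414171 had its centre on the listed start, with a score of 7.26 and a rank above 55.5% of its list. The MTA1 peak chr10:73413836-73414177 overlapped it, with a score of 5.89 and a rank of 34.9%. The start pair thus stood at the middle of the RUNX2 list and in the lower part of the MTA1 list. The other overlapping pair lay 16.2 kb beyond the end of ANXA7, at the start of CFAP70, a gene of motile cilia. There the RUNX2 peak chr10:73358745-73358884 scored 6.87 (rank 51.3%), a score that 1450 peaks of the list share, and the MTA1 peak chr10:73358743-73358967 scored 9.49 (rank 61.9%). The remaining RUNX2 peaks, chr10:73365472-73365570 and chr10:73368249-73368347, were 99 bp wide, the narrowest width of the list, scored 3.30 and 4.62 and had ranks of 3.10% and 19.0%. They too were nearer to the start of CFAP70 than to that of ANXA7.

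Set beside its relatives, ANXA7 had weak best peaks. Its strongest RUNX2 peak ranked above that of ANXA3 only. Its strongest MTA1 peak, the one at the start of CFAP70, ranked above those of ANXA3 and ANXA10 only. The MTA1 peak at the start of ANXA7 itself (rank 34.9%) stood below the strongest MTA1 peaks of ANXA3 and ANXA10 (46.6% at each). Among protein-coding genes with a peak, the strongest RUNX2 peak of ANXA7 stood higher than that of 20.5% and its strongest MTA1 peak higher than that of 24.6%. Over the family the strongest RUNX2 peak had a median rank of 91.9%, beside 81.5% for protein-coding genes with a peak, and the strongest MTA1 peak a median of 88.8%, beside 82.7%. The strongest RUNX2 peak ranked above 90% of its list at 6 members (ANXA1, ANXA2, ANXA4, ANXA5, ANXA6 and ANXA9), beside 27.3% of protein-coding genes. For MTA1 this was so at 5 (ANXA1, ANXA2, ANXA4, ANXA5 and ANXA9), beside 28.1%. The strongest RUNX2 peak of ANXA6 was nearest to the start of TNIP1, and the strongest peaks of ANXA9 in both libraries to a start of MINDY1. A longer window offers more peaks from which the strongest is taken, and the part of window length in these shares was not tested.

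ANXA5, which binds phosphatidylserine and is used as a probe of dying cells, had the highest RUNX2 rank of the family. The peak chr4:121668331-121668805, close to the far end of the gene at 28.4 kb from the start, scored 41.4 (rank 97.3%) and overlapped the MTA1 peak chr4:121668301-121668759, which scored 27.1 (rank 93.8%). At the start the RUNX2 peak chr4:121696740-121697372 was 633 bp wide and scored 28.7 (rank 93.3%). The MTA1 peak on it, chr4:121696720-121697294, was almost as wide at 575 bp but scored 7.12 (rank 45.7%). The start of ANXA5 therefore joined a high RUNX2 rank with a middling MTA1 rank, and the same order, with both lower, held at ANXA7. Further pairs lay 6.06 kb inside the gene (ranks 94.0% and 91.0%) and 14.8 kb before it (93.2% and 85.8%).

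ANXA4, a member of epithelial cells that orders membrane lipids, had peaks of both libraries at each of its 2 listed starts. At the first, the RUNX2 peak chr2:69643715-69644625 was 911 bp wide, the widest in the family, and scored 26.7 (rank 92.3%). Its MTA1 partner chr2:69643659-69644133 scored 25.1 (rank 92.5%). At the second start, 98.3 kb downstream, chr2:69742041-69742151 (RUNX2, score 6.37, rank 47.3%) and chr2:69742052-69742201 (MTA1, score 5.22, rank 21.2%) were both weaker. The first ANXA4 start was the highest ranked MTA1 site at any annexin start, while the strongest MTA1 peak of its window, chr2:69829303-69829727 (score 27.0, rank 93.7%), lay 2.19 kb beyond the gene at the neighbouring start of an uncharacterised transcript and of GMCL1.

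ANXA6, which carries a duplicated core and acts in endocytosis and cholesterol transport, had its first start covered by chr5:151157517-151157878 (RUNX2, score 11.9, rank 74.4%) and chr5:151157580-151157833 (MTA1, score 6.22, rank 37.6%). A further RUNX2 peak 1.88 kb into the gene, chr5:151155851-151155949, scored 3.07 and stood above 0.618% of the list. The second listed start had no peak within 3 kb. Past the end of the gene lay 7 of the 11 RUNX2 and 4 of the 8 MTA1 peaks, all nearer to the start of TNIP1, which restrains NF-kappaB signalling. The strongest RUNX2 peak, chr5:151092823-151093026 (score 27.3, rank 92.6%), and the strongest MTA1 peak, chr5:151093599-151093790 (score 17.8, rank 84.7%), were both in that stretch. A start of ANXA6 was the nearest to 4 RUNX2 and 3 MTA1 peaks.

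ANXA11, which tethers RNA granules to lysosomes, had 3 listed starts within 1.32 kb. The RUNX2 peak chr10:80205644-80205839 covered the first start but was weak (score 4.11, rank 12.9%) and had no MTA1 partner. The pair chr10:80203621-80203852 (RUNX2, score 10.1, rank 68.8%) and chr10:80203614-80203852 (MTA1, score 10.96, rank 68.6%) lay 0.755 kb into the gene from the third start. The pair before the first start, chr10:80207297-80207441 (score 17.98, rank 84.9%) and chr10:80207260-80207654 (score 11.4, rank 70.2%), was nearer to the start of the noncoding gene LINC00857. Its strongest pair was inside the gene, 47.1 kb from its first base, with RUNX2 at chr10:80158460-80158973 (score 22.2, rank 89.1%) and MTA1 at chr10:80158581-80158938 (score 12.7, rank 74.4%). Each of the 4 ANXA11 peaks of MTA1 met a RUNX2 peak.

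ANXA2, which forms a complex with S100A10 at the cell surface where plasminogen is activated, had RUNX2 peaks at its start and MTA1 peaks only elsewhere. The RUNX2 peaks chr15:60397979-60398188 (score 7.54, rank 57.2%) and chr15:60398589-60398687 (score 5.12, rank 28.8%) lay at the start, and the nearest MTA1 peak centre was 4.85 kb from the first of them. Strong pairs lay within the gene. At 23.2 kb from the start, chr15:60374653-60374973 (RUNX2, score 35.8, rank 96.0%) met chr15:60374676-60374994 (MTA1, score 32.3, rank 96.1%). At 4.79 kb, chr15:60393056-60393335 (RUNX2, score 24.98, rank 91.2%) met chr15:60393071-60393400 (MTA1, score 29.6, rank 95.1%). ANXA2 held 10 RUNX2 peaks against 4 MTA1 peaks, and the nearest listed start of all of them was its own.

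ANXA1, a mediator that dampens inflammation through formyl peptide receptors, had no peak of either library inside its span. At its start there was a weak RUNX2 peak alone, chr9:73149652-73149766, 2.16 kb before the start (score 4.52, rank 17.1%). Beyond its end lay the highest ranked MTA1 peak of the family, chr9:73176479-73176870 (score 39.2, rank 98.0%), on the RUNX2 peak chr9:73176499-73176868 (score 38.6, rank 96.7%). The pair was 6.11 kb past the gene and its nearest listed start was that of ANXA1, 24.8 kb away.

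ANXA3, a member abundant in neutrophils, had the lowest best rank of the family in RUNX2, and in MTA1 it stood level with ANXA10. Its only RUNX2 peak, chr4:78566060-78566265, scored 5.22 (rank 29.3%), a score carried by 6168 peaks of the list. The MTA1 peaks, chr4:78560700-78560894 (score 7.26, rank 46.6%) and chr4:78542511-78542626 (score 5.85, rank 30.5%), did not touch it, and the nearer of them was 5.37 kb away from centre to centre. Among protein-coding genes with a peak, the strongest RUNX2 peak of ANXA3 was higher than that of 7.17% and its strongest MTA1 peak higher than that of 14.8%.

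ANXA10, a member known from gastric epithelium, had 5 RUNX2 and 2 MTA1 peaks and none within 3 kb of its start. The strongest RUNX2 peak, chr4:168150787-168150902 (score 10.4, rank 69.9%), lay 58.3 kb into the gene and had no MTA1 partner. The strongest MTA1 peak, chr4:168200810-168201058 (score 7.26, rank 46.6%), lay 13.1 kb past the gene on a RUNX2 peak of score 8.60 (rank 62.5%). Every peak of ANXA10 was nearer to the start of another transcript than to its own.

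ANXA9, an unusual annexin whose calcium-binding sites have diverged, had no peak within 3 kb of its listed start either. The first base of its span lies upstream of that start, and the pair chr1:150977398-150977630 (RUNX2, score 16.6, rank 83.1%) and chr1:150977382-150977661 (MTA1, score 22.4, rank 90.2%) was centred 0.208 and 0.216 kb inside it, 4.78 and 4.77 kb before the listed start. Whether ANXA9 counts as bound at its start thus rested on which first base was used. The strongest peaks of its window lay at a neighbour, with chr1:151008182-151008425 (RUNX2, score 25.6, rank 91.6%) and chr1:151008159-151008599 (MTA1, score 25.7, rank 93.0%) at a start of MINDY1, a deubiquitinase gene. No peak of either library had the listed start of ANXA9 as its nearest.

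Overlap went with rank. Of the 13 annexin RUNX2 peaks above 90% of their list, 11 overlapped an MTA1 peak (90.6% of such peaks in the whole list), and of the 25 in the lower 50% of the list 4 did (whole list 20.4%). All 9 MTA1 peaks above 90% met a RUNX2 peak (whole list 99.1%), as did 12 of the 21 in the lower 50% (whole list 42.5%). Overlapping RUNX2 peaks had a median rank of 83.1% and the others of 35.0%, and the corresponding MTA1 medians were 68.6% and 27.7%. Overlapping peaks ranked higher in the whole lists as well, with medians of 72.4% and 29.3% for RUNX2 and 65.2% and 24.4% for MTA1.

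Within a pair the ranks could differ widely. RUNX2 had the higher rank in 21 of the 33 annexin pairs, and in 56.7% of all pairs. At the members' own starts it was higher in 6 of 7 pairs, which lie in 5 genes. Over the 8334 pairs at listed starts of protein-coding genes the share was 40.2%. Away from the members' own starts it was higher in 15 of 26, beside 63.7% of pairs away from every protein-coding start. Annexin pairs at the starts of CFAP70, GMCL1, MINDY1 and TNIP1 are among the 26, but the 63.7% leaves out all pairs at such starts. RUNX2 had the higher rank only at TNIP1 among them. The 15 of 26 and the 63.7% are therefore not like for like. The exception at the starts was the first start of ANXA4, where the ranks were 92.3% and 92.5%. The median difference, RUNX2 minus MTA1, was 7.92 percentage points over the annexin pairs and 3.25 over all pairs, and 13 of the 33 pairs were within 10 points of each other, beside 35.4% of all pairs. With so few pairs and 1 library of each antibody these differences were not tested.

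**Figure D4:**
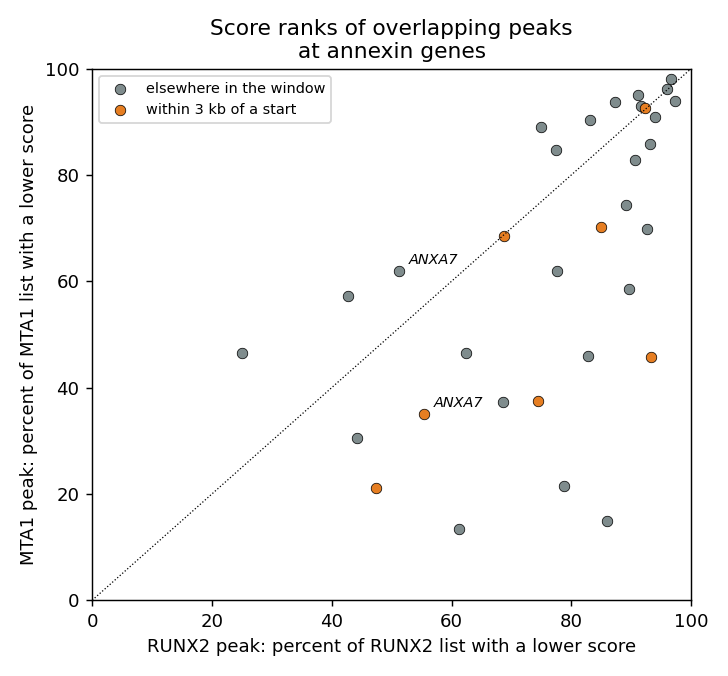
Each point is 1 of the 33 overlapping pairs, with the rank of the RUNX2 peak (percent of the RUNX2 list with a lower score) on the horizontal axis and that of the MTA1 peak on the vertical axis. Points below the diagonal have the higher rank in RUNX2 (21 pairs), among them 6 of the 7 pairs at starts.

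Strong RUNX2 peaks without an MTA1 peak were few. The strongest, chr4:121706741-121707025, lay 9.90 kb before ANXA5, scored 34.6 (rank 95.7%) and had its nearest MTA1 peak 4.80 kb away. Of the 2671 RUNX2 peaks that scored at least as high, 138 (5.17%) had no MTA1 overlap. Next came chr15:60371374-60371575 inside ANXA2 (score 25.4, rank 91.5%) and chr5:151126309-151126517 inside ANXA6 (score 19.1, rank 86.2%), and of the RUNX2 peaks at or above their scores 8.47% and 11.4% had no MTA1 overlap. The strongest MTA1 peak without RUNX2 was weaker, chr9:73132417-73132558, 19.3 kb before ANXA1, at a score of 8.69 (rank 57.3%). Of the 18227 MTA1 peaks that scored at least as high, 1582 (8.68%) had no RUNX2 overlap.

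Some peaks sat at the limits of their lists. The narrowest width, 99 bp for RUNX2 and 116 bp for MTA1, was that of 15 annexin RUNX2 peaks (22.4%, whole list 31.7%) and 10 MTA1 peaks (22.7%, whole list 26%). A score shared by at least 100 peaks of the list was carried by 23 RUNX2 (34.3%, whole list 50.9%) and 21 MTA1 peaks (47.7%, whole list 48.6%). A missing peak at a member can be an absent signal or one below the threshold of the list.

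The promoters differed widely in base composition. Over 300 bases, 250 before and 50 after each of the 14 listed starts, the number of CG dinucleotides ran from 0 at ANXA1 and ANXA10 to 44 at the first start of ANXA4. The median over 22198 promoters of protein-coding genes was 21, and it was 26 with a RUNX2 peak within 3 kb and 9 without (26 and 8 for MTA1). ANXA5 had 36, ANXA2 32, ANXA3 25 and ANXA7 23. The promoters of ANXA1, ANXA10 and ANXA9 held 0, 0 and 5 and none was touched by a peak. ANXA3 stood apart from them, as its promoter held more CG than that of ANXA7 and had no peak within 3 kb.

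**Figure D5:**
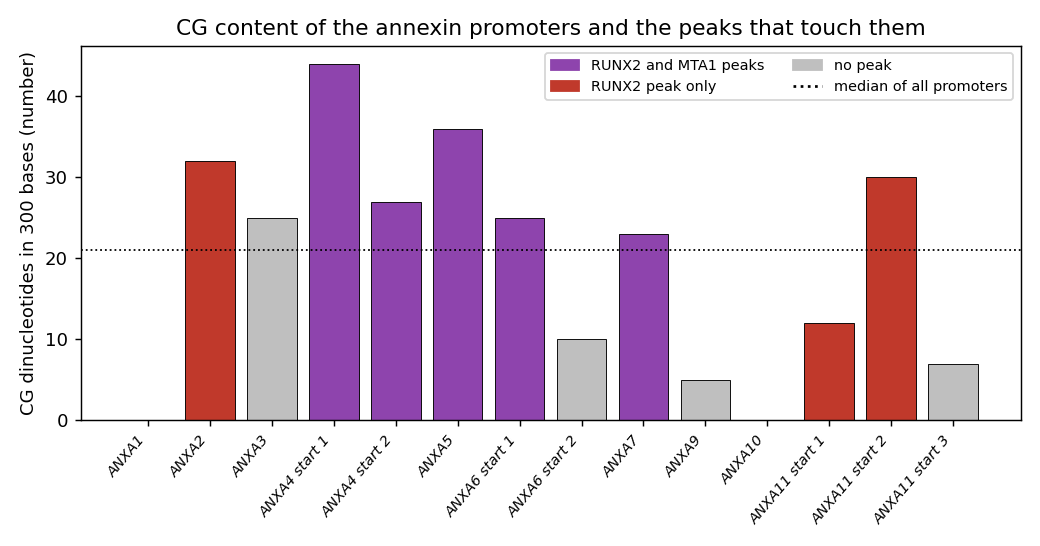
The number of CG dinucleotides in the 300 bases around each of the 14 listed starts is plotted, with the colour of each bar showing which libraries had a peak that touched those bases and a dotted line at the median of all promoters (21). The bars of ANXA1 and ANXA10 are at 0, and ANXA3, at 25 and untouched, is as high as the first start of ANXA6, which peaks of both libraries touched.

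Of the 14 annexin promoters, 7 held at least 1 of the searched motifs, beside 30.4% of the 22198 promoters, and 5 held a RUNX core (35.7%), beside 19.0%. Several starts of 1 gene are counted separately and no test was made. TGTGGT is found on either strand in 11.3% of all promoters, TGCGGT in 8.54%, TGANTCA in 6.15% and CACGTG in 8.34%. The ANXA7 promoter held none of the 4, although RUNX2 peaks covered 163 and MTA1 peaks 169 of its 300 bases. In ANXA5, whose 300 bases were covered in full by peaks of both libraries, TGCGGT began 84 bases before the start. In ANXA6 the first start itself lay in a TGCGGT and a CACGTG began 50 bases before it, both under peaks of both libraries. In ANXA2 the AP-1 letters TGAGTCA began 127 bases before the start, under the RUNX2 peak. The CACGTG of the second ANXA4 start, which began 216 bases before it, the TGCGGT of ANXA3, 26 bases before the start, and the TGTGGT of ANXA11, in the printed sequence as ACCACA on the opposite strand and again 15 bases before the third start, lay under no peak. A match is a description of letters and not a bound site, and the sequences under the peaks outside these windows were not analysed here. The primers that the study used to test ANXA7 chromatin lie outside these 300 bases.

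Proteins that work with annexins were taken as a list for comparison, the S100 partners S100A10, S100A11 and S100A6, the ANXA1 receptors FPR1 and FPR2, the phospholipase PLA2G4A, the calcium-binding PDCD6 and SRI, and the repair and scaffold proteins DYSF and AHNAK. The 10 partner genes had 64 RUNX2 and 39 MTA1 peaks in their windows, of which 2 were counted under more than 1 gene. Overlap was 48.4% for RUNX2 and 79.5% for MTA1, near the 49.3% and 75% of the annexins. The shares of the whole lists were 45.4% and 65.5%. Both libraries had a peak at the start of 7 of 10, beside 51.7% of protein-coding genes with a listed start. FPR1, FPR2 and PLA2G4A had none there, as did 34.4% of such genes. PLA2G4A had no RUNX2 peak and FPR2 no MTA1 peak in the whole window. The strongest peaks of both libraries were in the window of S100A11, 10.9 and 10.96 kb before the gene and nearer to the start of an uncharacterised transcript, where chr1:152047914-152048686 (RUNX2, score 46.5, rank 98.1%) met chr1:152047961-152048697 (MTA1, score 53.8, rank 99.5%). S100A10, singled out after its values were seen, had 11 RUNX2 peaks or 21.6 per 100 kb, above 99.9% of protein-coding genes. ANXA2, whose protein it binds, had 11.01 per 100 kb, above 93.6% of them.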

How the data were processed

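Peaks of CUT&Tag libraries from non-treated MDA-MB-231 cells were analysed, 1 library with a RUNX2 and 1 with an MTA1 antibody, grouped by the antibody target in the labels. For each library the authors deposited its own peak list, with a score for every peak. The submitters' processing notes name CASAVA 1.4, Bowtie 0.12.8, MACS, MACS2 and the build hg19 without roles. The scale of the score, the threshold and any control are not given in the sources used here. The labels describe ligation of adaptors, an unusual step for CUT&Tag. Depth is unknown.

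Peaks off chromosomes 1 to 22, X and Y were dropped from the 61717 RUNX2 and 42698 MTA1 peaks. Genes, starts and promoters came from RefSeq GRCh38.p14. All 10 members matched, with 14 listed starts. Peaks were assigned to a gene when inside it or within 20 kb, called at a start within 3 kb of it by their nearest base, and called overlapping at 1 bp or more. Other distances to a start were taken from the centre of the peak. Ranks are the percent of the own list with a lower score. Named were all members, each with its strongest peak per library and its peaks at the start, every peak of ANXA7, and partner genes by counts. Other peaks described were chosen after their values were seen. The members and lists were chosen with earlier results of these data known. The counting was tested on simulated data. Computation used scipy 1.17.1, pandas 2.3.3 and numpy 2.4.6 in Python 3.11.15, with plots by matplotlib 3.10.9.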

Additional observations from a re-analysis of the deposited data

How the results depend on the processing

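With 1 library per antibody no replicate could be left out. No paired analysis was possible because the result comes from no test and the antibodies share no replicate numbers. The number of RUNX2 peaks at annexin genes (67) became 42 when scores had to reach the median of the list, 19 with the 10000 highest scores of each list and 39 with only the peaks whose nearest listed start is that of the annexin gene, an alternative chosen after seeing the data. The number of MTA1 peaks (44) became 29 with a 5 kb window, 23 at or above the median score, 13 in the highest 10000 and 25 with the nearest start. The share of MTA1 peaks that overlap RUNX2 (75%) became 87.0% at or above the median score. Members with both libraries at a start (5) became 2 at or above the median score and 1 in the highest 10000. Among single members, the 5 kb window left 3 RUNX2 and 3 MTA1 peaks at ANXA6 (from 11 and 8) and 1 and 1 at ANXA7 (from 4 and 2), and with the nearest start ANXA9 and ANXA10 had 0 peaks of either library (from 5 and 4, and 5 and 2). The 5 kb window left ANXA1 with 0 MTA1 peaks (from 3). Of the 20 counts per member and library, 3 fell to 0 at or above the median score (both of ANXA3 and the MTA1 count of ANXA10). In the highest 10000, 7 fell to 0, among them both of ANXA7. These alternatives hold fewer peaks by construction. The remaining alternatives left the family counts within 1.5 times and the shares within their intervals. Peaks without read counts limit what can be said of a member without a peak, such as the starts of ANXA3, ANXA9 and ANXA10.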
